A study of Mus musculus with 16 samples.

Results

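Cytosolic ribosomal protein genes encode the proteins of the ribosome that works in the cytoplasm. The table of values listed 15895 genes, and 75 of them were members by their symbol and their protein-coding biotype: 44 of the large (60S) subunit (Rpl genes) and 31 of the small (40S) subunit (Rps genes and Rpsa). The rule used names and no measured value. Of the 75, 68 passed the filter on low values used for testing (4 or more libraries at 1 or above), and Rpl36a, Rps23, Rpl36, Rpl27, Rpl17, Rps27 and Rps2 did not.

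The ribosome translates mRNA into protein. The small subunit reads the mRNA, the large subunit joins the amino acids, and their proteins are made in matched amounts and assembled with ribosomal RNA in the nucleolus. In mammals most mRNAs for ribosomal proteins start with an unbroken run of pyrimidines (C and T in the DNA), the 5′ terminal oligopyrimidine or TOP motif, through which the kinase mTOR sets how strongly they are translated. Growing and dividing cells make more ribosomes, and Myc is among the transcription factors that raise the expression of ribosome genes.

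The series compares cardiac lymphatic endothelial cells, the lining of lymph vessels, after infarction in the newborn mouse, whose heart regenerates, and in the adult, whose heart scars. The mice were CD1, operated on at postnatal day 1 (P1) or as 8-week-old adult males (P56), by myocardial infarction (MI, tying of a coronary artery) or by the same operation without it (sham), and hearts were taken 3 days later. Neonatal ventricles were pooled, cut up and digested in a stirrer, and their non-myocytes were taken from a Percoll gradient, whereas adult hearts were digested by perfusion through the aorta. Cells negative for CD45 and positive for CD31 and podoplanin were sorted, and their amplified RNA was sequenced as single 80-base reads. This gives 4 groups, named by operation and age (sham P1 and MI P1, sham P56 and MI P56), with 4 libraries each. The column numbered 5 of a group could be matched to the group but to no single label. Age cannot be told apart from the digestion, the pooling and the animals' sex. Nothing in the labels tells whether libraries of a group came from separate animals or pools, so every p-value measures the spread between these libraries.

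In 13 of the 16 libraries at least 10000 genes had a read, and these 13 (at P1 2 sham and 4 MI, at P56 4 sham and 3 MI) carry the values below unless stated. They held 17103319 to 26904599 reads, of which 6709566 to 12918569 lay outside mt-Rnr1, mt-Rnr2 and Uqcrc1, 3 genes that took much of the reads. Reads on the members numbered 15686 to 43159 per library. In the other 3 libraries (sham P1 libraries 1 and 2, MI P56 library 5) they numbered 15846, 2413 and 90, and 58, 38 and 34 members had a read. Values are the deposited scaled counts, in which 3 reads equal 0.0489 to 0.109 in the 13 libraries. Lymphatic markers were present in every group, with group means of 189 to 371 for Prox1 and of 423 to 674 for Lyve1. In bulk samples fewer cells of a type and less RNA per cell cannot be told apart.

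The stretches around the annotated start of transcription are shown for members that later results turn on, to make the pyrimidine run visible. Each is 50 bases long, from 30 bases before the start to base 20 of the transcript, 5′ to 3′ on the gene's strand, from RefSeq on GRCm38.p6. Capitals mark the longest run of C and T that overlaps the 10 bases on either side of the start. Rpl4 (chr9:64173357-64173406, plus strand), Rpl15 (chr14:18270967-18271016, minus strand) and Rpl28 (chr7:4792935-4792984, plus strand) carry long runs.
Rpl4: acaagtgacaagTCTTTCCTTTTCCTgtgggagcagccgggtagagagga
Rpl15: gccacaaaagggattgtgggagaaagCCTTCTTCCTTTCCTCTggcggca
Rpl28: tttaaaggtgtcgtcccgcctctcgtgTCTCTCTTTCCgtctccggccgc
Rpl6 (chr5:121204471-121204520, plus strand), Rps16 (chr7:28350659-28350708, plus strand) and Rpl10 (chrX:74270786-74270835, plus strand) have short runs in this window.
Rpl6: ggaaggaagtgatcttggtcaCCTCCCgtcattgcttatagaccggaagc
Rps16: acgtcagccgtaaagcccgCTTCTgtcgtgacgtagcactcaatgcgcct
Rpl10: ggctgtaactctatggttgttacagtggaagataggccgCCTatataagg
Rpl22 (chr4:152325696-152325745, plus strand) and its paralog Rpl22l1 (chr3:28805478-28805527, plus strand) differ in this feature.
Rpl22: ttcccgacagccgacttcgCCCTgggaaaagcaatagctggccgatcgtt
Rpl22l1: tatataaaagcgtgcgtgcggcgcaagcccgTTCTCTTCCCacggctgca

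The table of RefSeq windows held 58 of the 75 members. The run was 14 bases in Rpl4, 17 in Rpl15 and 11 in Rpl28, against 6 in Rpl6, 5 in Rps16 and 3 in Rpl10, and 10 in Rpl22l1 against 4 in Rpl22. A run of 8 or more bases was found in 27 of the 58 members (46.6%) and in 13.5% of 27025 genes with a window. With at least 10 bases the shares were 34.5% and 6.83%, and with at least 6 they were 58.6% and 29.1%. The letters CCGGAA, looked for on both strands of the whole window of 250 bases before to 50 bases after the start, were in 30 of 58 members (51.7%) and in 15.2% of all genes, or 27.7% of the 9963 genes listed in the table. The letters AAGATGG were in 15.5% and 6.48%. These are matches of letters around 1 annotated start per gene, and other annotations place some starts a few bases away. A run counted here can lie wholly before the annotated start, as in Rpl4, Rpl6 and Rps16. It is then outside the annotated transcript and is not a TOP motif by this annotation.

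Reads counted to the members were a small share of each library. Some reads from their mRNA may be counted elsewhere, since much of the sequence also fits other genes. The share of counted reads was lowest in sham P56. As a percentage of reads outside mt-Rnr1, mt-Rnr2 and Uqcrc1, it was 0.281 and 0.263 in the sham P1 libraries, and 0.302, 0.334, 0.251 and 0.301 in MI P1. The share was 0.157, 0.146, 0.180 and 0.192 in sham P56, and 0.223, 0.251 and 0.260 in MI P56. All 4 sham P56 libraries lay below all 9 others. At P56 the mean was 0.169% ± 0.0209 (SD, n = 4) in sham and 0.245% ± 0.0197 (n = 3) after MI. At P1 it was 0.272% ± 0.0126 (n = 2) in sham and 0.297% ± 0.0345 (n = 4) after MI. At P56 the share after MI was 1.45 times that in sham, and in sham it was 0.621 times as large at P56 as at P1. At P1 the ratio of MI to sham was 1.09, and the libraries of these groups overlapped. Both subunits followed this order of groups, with ratios of MI to sham at P56 of 1.46 for the large and 1.44 for the small subunit.

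The order did not rest on the most abundant member alone. Without Rpl4, the means at P56 were 0.140% in sham and 0.191% after MI, a ratio of 1.36, and at P1 0.207% and 0.231%. Without the 5 most abundant members the ratio was 1.35. It was sensitive to the denominator for age: as a share of all reads, mitochondrial ribosomal RNA and Uqcrc1 included, the means at P56 were 0.106% in sham and 0.151% after MI, a ratio of 1.43, and at P1 0.109% ± 0.0614 (SD) and 0.161% ± 0.0382, so that the ratio of sham P56 to sham P1 was 0.970. The genes for proteins of the mitochondrial ribosome, 74 in the table, took 0.0873% of the reads in sham P56, 0.0841% in MI P56, 0.0721% in sham P1 and 0.0764% in MI P1, with a ratio of 0.963 for MI against sham at P56. Of the 3 libraries with few genes, sham P1 library 1 had 0.249% and MI P56 library 5 had 0.218% on members, and sham P1 library 2 had 0.750%, where Rpl23 alone was at 5820, Rps15 at 1943 and Rpl41 at 1377.

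**Figure D1:**
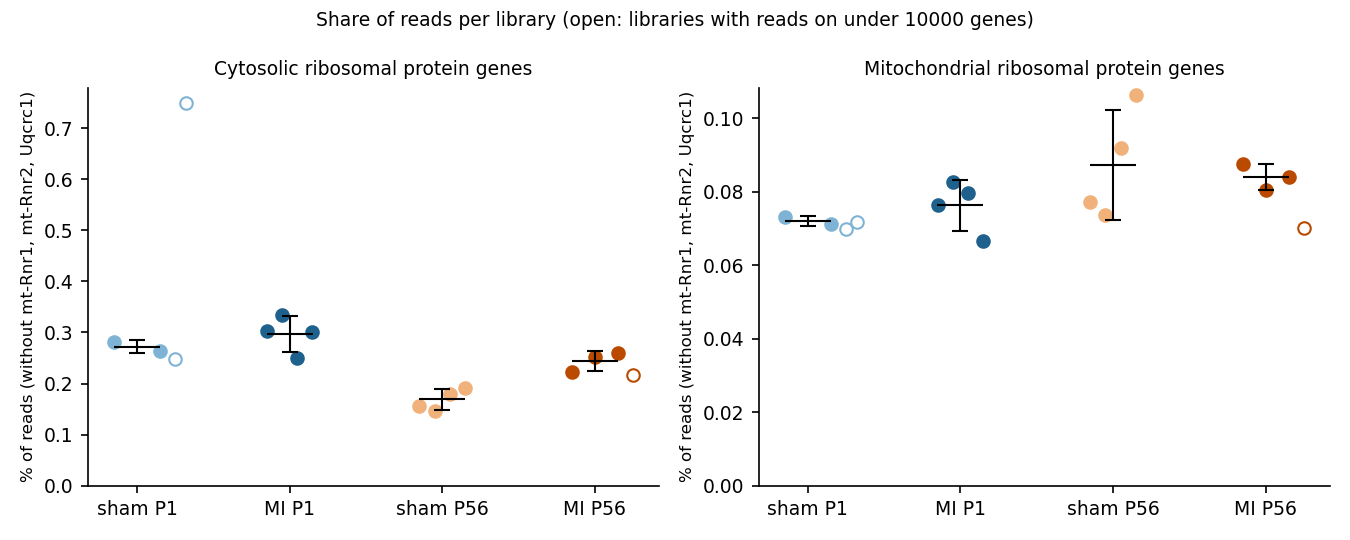
Share of reads on the 75 cytosolic (left) and the 74 mitochondrial (right) ribosomal protein genes, in percent of reads outside mt-Rnr1, mt-Rnr2 and Uqcrc1, by group; filled points are the 13 libraries fitted, bars their mean ± SD, and open points the 3 libraries with a read on fewer than 10000 genes. The 4 sham P56 points of the cytosolic genes, 0.146 to 0.192, lie below every other library, while for the mitochondrial genes the sham P56 points overlap both MI groups and lie above the 2 fitted sham P1 points.

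Levels of single members spanned a wide range although their proteins are needed in equal numbers. Exon length here merges the exons of all annotated transcripts of a gene and can exceed that of 1 mRNA. For Rps24 it was 6256 bases, where the longest coding transcript has 1613. Per kb of exon, Rpl4 was highest with a mean value of 57.3 over the 13 libraries. It was followed by Rps15 with 24.5 and Rpl41, which encodes the smallest ribosomal protein, with 17.2. The lowest were Rps2 with 0.176, Rpl27 with 0.330 and Rpl17 with 0.341. The median member was at 1.63 per kb and the median of 12610 protein-coding genes at 1.07. Of the 75 members 44 lay above that median, 15 among the highest 10% of protein-coding genes and 1 among the lowest 10%. By group the members' median per kb was 1.20 in sham P56, 1.55 in MI P56 and 1.77 in each P1 group, while that of all protein-coding genes stayed between 0.994 and 1.05. The 5 most abundant members held 38.0% of the summed value, and Rpl4 by itself held 10.8% to 24.5% of the member reads of a library.

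Ribosomal protein genes have many processed pseudogenes, copies of their mRNA in the genome, so that a read can fit more than 1 place. Of all 80-base windows of a member's longest coding transcript in GENCODE M21, a median of 53.2% was also found, with at most 2 mismatches, in a transcript of another gene. For 74 of the 75 members at least 1 window was shared, for 40 at least 50% of them, and 73 shared windows with an annotated pseudogene (Rpl7a with 120). Rps3 shared 6.07%, whereas Rpl36 shared 97.4% and Rps18 96.9%. The median level per kb was 2.03 in the 35 members with under 50% of windows shared and 1.00 in the 40 others, and Spearman's rho between level per kb and percent shared was -0.26 over the 75 members. How the authors' counting treated reads with several places is not given in the sources used here, and its part in these levels was not tested.

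**Figure D2:**
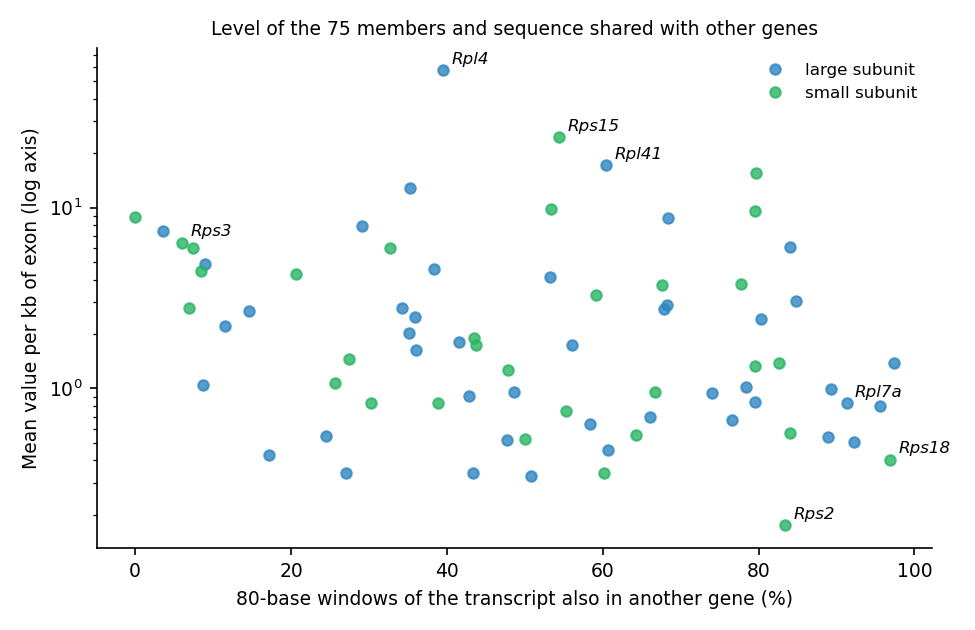
Mean value per kb of exon (log axis) of each of the 75 members over 13 libraries against the percentage of its transcript's 80-base windows that another gene also holds. Rpl4 stands highest at 57.3 per kb with 39.5% of windows shared, and members with much shared sequence, such as Rps18 and Rps2, are among the low ones, while Rps15 and Rpl41 are high with over 50% shared.

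Reads also lay on pseudogenes themselves. The table listed 41 Rpl or Rps genes with -ps in their symbol, and their summed value was 25.1% of that of the members. Rpl9-ps6 and Rpl23a-ps3 among them carry the protein-coding biotype. Pseudogenes without -ps in their symbol were not looked for. In 13 of the 39 -ps genes that carry the name of a member, the copy was above the gene. Rpl10a-ps1 had a mean value of 28.4, where Rpl10a itself had 1.63, and Rps6-ps4 had 10.6, where Rps6, the substrate of S6 kinase, had 0.898. Reads of copy and gene cannot be told apart where their sequences match. The levels of Rpl10a, Rps6, Rpl31, Rps16, Rpl38, Rpl36a, Rpl3, Rps2, Rpl19, Rpsa, Rps27, Rps13 and Rpl9 are uncertain for this reason. Other members with much shared sequence, such as Rpl10 (84.8% of its windows), may be affected too. The summed value of the -ps genes was 77.4 to 115 in sham P56, 124 to 156 in MI P56, 139 to 162 in sham P1 and 138 to 197 in MI P1. Every sham P56 library was below all others here too. Of 28 -ps genes tested, 2 rose after MI at P56 (7.14%, against 2.36% of all genes higher). These were Rpl10a-ps1 (1.36 ± 0.27, limma adjusted p = 0.0061) and Rpl14-ps1 (1.38 ± 0.34, adjusted p = 0.0276). With age in sham 2 fell and 1 rose (10.7%, against 13.2% of all genes called). Many small nucleolar RNAs are cut out of introns of ribosomal protein transcripts. Genes for them lay inside 29 members and overlapped an annotated exon in 23, where their reads cannot be told apart from those of the host.

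After MI at P56 many members had slightly higher values, and 1 passed the test. Of the 68 members tested 52 had a fitted log2 change above 0 (76.5%, against 50.7% of all 13033 genes tested), with a median of 0.26 on the log2(value + 1) scale beside 0.01 for all genes. Rpl4 was called at an adjusted p under 0.05 (limma, Benjamini-Hochberg over all genes tested) and no member was called lower. That is 1.47% of members, where 3.42% of all genes were called (2.36% higher and 1.07% lower). With all 16 libraries 0 members and 0.174% of all genes were called, and DESeq2 on the recovered reads called 3 members (4.41%) and 6.64% of all genes. The groups did not overlap in 15 members, all higher after MI (22.1%, against 8.00% of all genes higher and 5.79% lower). These were 10 small subunit genes, among them Rps3, Rps15, Rps3a1, Rps25, Rpsa and Rps16, and 5 large subunit genes, among them Rpl4, Rpl14 and Rpl10. At an unadjusted p under 0.05 there were 10 members, all of them higher, beside 9.62% of all genes higher and 7.53% lower. The median was 0.20 over 40 large subunit genes and 0.34 over 28 small subunit genes, and 27 and 25 of them were above 0.

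Rpl4 encodes a large subunit protein with a long loop that lines the tunnel through which the new protein leaves the ribosome (chromosome 9, 64173375 to 64178666). Its values were 77.3, 48.0, 67.9 and 62.0 in the sham P56 libraries and 111, 112 and 126 in those of MI P56. At P1 they were 145 and 156 in sham and 151, 163, 127 and 147 after MI. The 4 sham P56 libraries were below all 9 others, and both P1 groups overlapped. At P56 its mean was 63.8 ± 12.3 (SD, n = 4) in sham and 117 ± 8.51 (n = 3) after MI, a log2 change of 0.88 ± 0.19 (SE; limma adjusted p = 0.0148). With all 16 libraries its adjusted p was 0.618, in a fit of the 2 groups alone 0.0712 and without MI P56 library 3 0.0914, with a change of 0.82 to 0.88 in each. With libraries numbered 1 to 3 it was 0.077 with the replicate number as a block and 0.0585 without it.

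Rps3 and Rpl10 came close to the threshold. Rps3, whose protein sits where the mRNA enters the small subunit, was at 21.1, 7.48, 17.1 and 20.8 in sham P56 and at 31.9, 28.1 and 38.7 after MI. It was named here after its values had been seen, and every MI library was above every sham library. Its log2 change was 1.03 ± 0.29 (adjusted p = 0.0537). It passed by DESeq2 (0.03), with a minimum value of 5 (0.0436) and without sham P56 library 1 (0.0384), 2 (0.0499) or 5 (0.0486). Rpl10, which joins the large subunit late in its assembly, was at 4.86, 2.41, 4.94 and 4.35 in sham P56 and at 10.1, 9.27 and 7.77 after MI. These groups did not overlap either, and its change was 1.00 ± 0.30 (adjusted p = 0.0698, and 0.0194 by DESeq2). At P1 Rpl10 was at 7.97 and 7.72 in sham and at 4.23, 7.26, 5.06 and 5.07 after MI, lower in every MI library.

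At P1 no member passed the test for MI against sham in limma, and 0% of all genes did (0.0537% by DESeq2, which called 0 members). Of the 68 members 41 were above 0, with a median change of 0.07 beside 0.02 for all genes, and 1 higher and 1 lower had an unadjusted p under 0.05, as did 2.32% and 1.40% of all genes. Groups did not overlap in 7 members higher after MI (10.3%, against 8.89% of all genes) and in 4 lower (5.88%, against 7.27%). Rps3a1, a small subunit gene, was at 14.7 and 10.1 in sham and at 16.6, 21.7, 18.4 and 25 after MI, a log2 change of 0.69 ± 0.28 (adjusted p = 1). Rps20, whose protein lies in the head of the small subunit, was at 43.2 and 50.2 in sham and at 20.6, 24.6, 21.4 and 29.3 after MI, a change of -0.94 ± 0.40 (adjusted p = 1). The groups did not overlap in either gene, and sham P1 had only 2 libraries in this fit. Rps4x (0.46), Rpl15 (0.95), Rps16 (-0.61) and Rpl10 (-0.49) were the others with the smallest p in each direction, all with an adjusted p of 1.

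The difference between the responses to MI at the 2 ages was called for 0 members by limma (0.483% of all genes; with all 16 libraries 0 members and 0.00755%) and 4, all above 0, had an unadjusted p under 0.05, beside 5.70% of all genes above and 5.20% below 0. DESeq2 called 2.49% of all genes and 1 member, Rpl10, with a log2 difference of 1.69 (adjusted p = 0.0409), where limma gave 1.48 ± 0.45 (adjusted p = 0.163). Of the 68 members 48 were above 0 (70.6%, against 49.6% of all genes), with a median difference of 0.27 beside -0.01 for all genes. For Rpl4 it was 0.92 ± 0.29 (adjusted p = 0.191) and for Rps16 0.91 ± 0.40 (adjusted p = 0.398). Rpl15 at -1.11, Rpl35a at -0.79 and Rpl38 at -0.66 had the smallest p below 0. A call at P56 and none at P1 therefore does not show that a member's response differed between the ages.

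**Figure D3:**
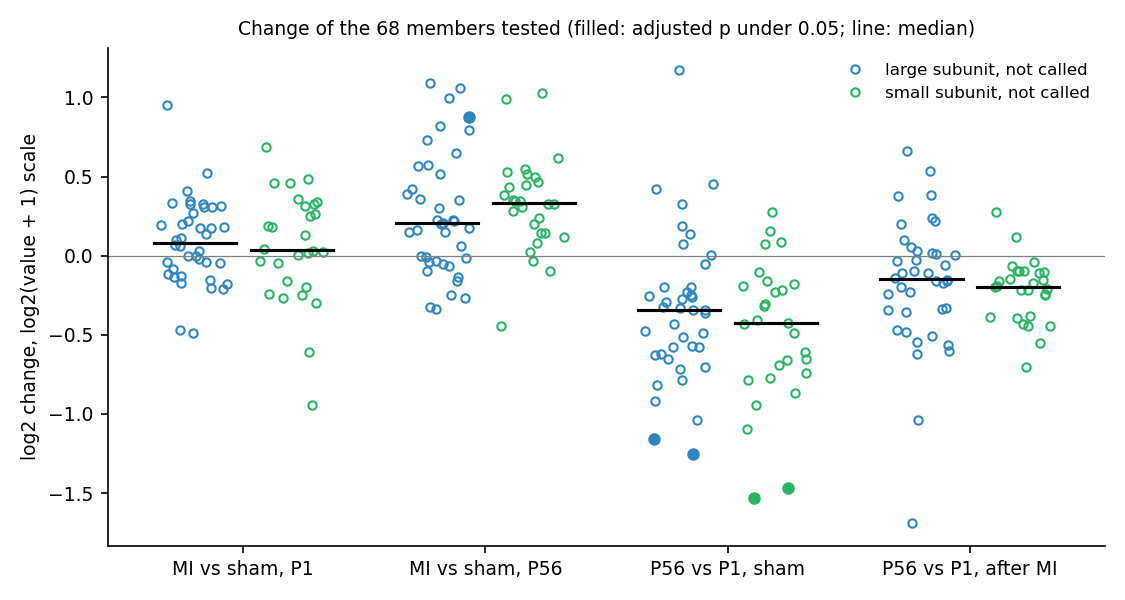
Fitted log2 changes of the 68 members tested in 4 comparisons of 2 groups, large subunit genes in blue and small subunit genes in green, on the log2(value + 1) scale; filled points passed an adjusted p under 0.05 and lines are medians. Rpl4 is the filled point for MI at P56, and Rpl4, Rps16, Rps20 and Rpl6 are those for age in sham, where 56 of 68 points lie below 0.

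In sham hearts 56 of the 68 members tested had lower fitted values at P56 than at P1, and 4 passed the test. Those 56 made up 82.4%, against 49.9% of all genes, and the median over the 68 was -0.39 beside 0.00 for all genes. The 4 called were all lower, and that is 5.88% of members where 13.2% of all genes were called (7.28% lower and 5.89% higher). With all 16 libraries 1 member, Rps16, and 3.91% of all genes were called, and DESeq2 called 7 members (10.3%) and 16.5% of all genes. At an unadjusted p under 0.05 there were 14 members lower and 1 higher, beside 13.6% and 13.1% of all genes. The groups did not overlap in 20 members lower at P56 (29.4%, against 16.7% of all genes) and in 2 higher (2.94%, against 16.3%), which were Rpl35a and Rpl13. The 4 called genes were Rpl4, Rps16, Rps20 and Rpl6. The longest pyrimidine run near the annotated start, shown above, was 14 bases in Rpl4, 6 in Rpl6 and 5 in Rps16. In each of these it lay wholly before that start.

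Rpl4 went from 151 ± 7.78 (SD, n = 2) in sham P1 to 63.8 ± 12.3 (n = 4) in sham P56, a log2 change of -1.25 ± 0.22 (SE; limma adjusted p = 7.8e-04). With all 16 libraries its adjusted p was 0.102. Rps16, whose protein reaches toward the tRNA in the small subunit, was at 2.36 and 2.86 in sham P1 and at 0.291, 0.362, 0.235 and 0.323 in sham P56. In MI P1 it was at 1.53, 1.01, 1.67 and 1.29, and in MI P56 at 0.549, 0.582 and 0.700, so that the 4 groups did not overlap with each other. Its change in sham was -1.47 ± 0.30 (adjusted p = 0.0023), and 0.0509 without sham P1 library 5. At these values a pseudocount of 1 shrinks a fold, and edgeR on the recovered reads gave -3.14 (adjusted p = 0.00417). Its processed pseudogene Rps16-ps2 was at a mean of 6.5.

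Rps20 (chromosome 4, 3831334 to 3835665) was at 43.2 and 50.2 in sham P1 and at 10.6, 38.1, 11.5 and 12.0 in sham P56. Library 2 of sham P56 stood near the P1 values while the other 3 were together. Its log2 change was -1.53 ± 0.40 (adjusted p = 0.0154), and 0.0697 with all 16 libraries, 0.065 in a fit of the 2 groups alone and 0.0507 by edgeR. Without sham P1 library 3 the adjusted p was 0.0823 and without library 5 it was 0.161. Rpl6, a large subunit gene, was at 9.77 and 21.6 in sham P1 and at 4.80, 8.41, 6.69 and 4.68 in sham P56, a change of -1.16 ± 0.35 (adjusted p = 0.0322). The lower sham P1 library was close to the highest of sham P56, and without sham P1 library 5 the change was -0.62 (adjusted p = 0.513). Its adjusted p was 0.202 with 16 libraries, 0.13 in a fit of the 2 groups, 0.0613 without sham P56 library 1 and 0.0723 without its library 5. With libraries numbered 1 to 3 and the number as a block, none of the 4 members was called (limma adjusted p = 0.118 for Rpl4, 0.25 for Rps16, 0.102 for Rps20 and 0.846 for Rpl6). That fit called 2.23% of all genes.

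Library 2 of sham P56 stood apart from the other libraries of its group. It had a read on 14121 genes, and 20 of the 68 members (29.4%) lay more than 1 log2 unit from the mean of the other 3, as did 33.1% of all genes, while in the other sham P56 libraries 0 to 4 members did. Without it 9 members were called for age in sham, 8 lower and Rpl35a higher (13.4%, against 17.6% of all genes). Rpl41, Rplp0 and Rps24 were among those that joined the 4 named above. For MI against sham at P56, 3 were then called (4.48%, against 5.01% of all genes), all higher: Rpl4, Rpl41 (1.05, adjusted p = 0.0147) and Rps3 (0.71, adjusted p = 0.0499). In the difference between the responses 1 member (1.49%, against 1.77% of all genes), Rps20, was then called (1.5, adjusted p = 0.042), and for MI at P1 0 members by limma (0.0155% of all genes).

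After MI, no member was called between P56 and P1, while 5.35% of all genes were (0 members and 0.106% with all 16 libraries), and 4 lower and 1 higher had an unadjusted p under 0.05, as did 9.87% and 8.19% of all genes. The members' median was -0.16 beside 0.01 for all genes, and 53 of 68 were below 0 (77.9%, against 49.4%). Groups did not overlap in 12 members lower at P56 (17.6%, against 11.2% of all genes) and in 1 higher, Rpl10 (1.47%, against 9.44%). Rpl15, a large subunit gene, was at 18.1, 24.6, 46.0 and 47.8 in MI P1 and at 8.15, 9.25 and 9.97 in MI P56. It was lower in every MI P56 library, with a change of -1.69 ± 0.52 (adjusted p = 0.0646). It was the 1 member called by DESeq2 (adjusted p = 0.00921), which called 7.86% of all genes. It was also called in a fit of the 2 groups (0.00183), with a pseudocount of 4 (0.0498), and without sham P56 library 1 (0.0135), 2 (0.033) or 3 (0.0367). Without sham P56 library 2, 10.4% of all genes were called. Rpl34, Rpl32, Rpl13a, Rpl28 and Rpl10 were the others with the smallest p, at -1.04, -0.56, 0.53, 0.38 and 0.66.

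**Figure D4:**
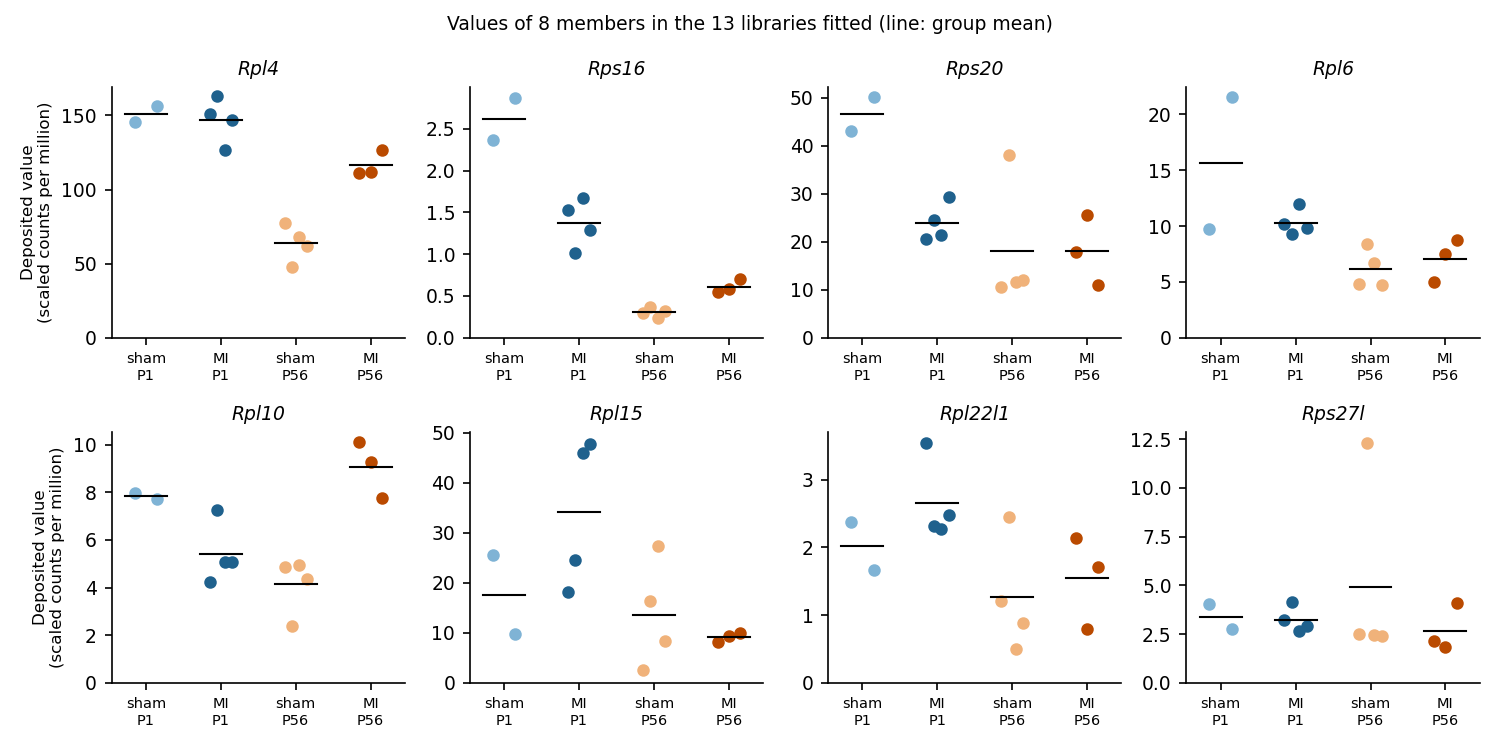
Deposited values of 8 members in the 13 libraries fitted, by group, with a line at each group mean; each panel has its own linear axis from 0. Rpl4, Rps16 and Rps20 are highest in sham P1 or in both P1 groups, Rpl10 is highest in MI P56, Rpl15 runs from 2.51 to 27.3 within sham P56, and 1 sham P56 library stands apart in Rps20 (38.1) and Rps27l (12.3).

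The most variable members varied within groups as well. Rpl15 had the largest SD over the 13 libraries relative to the median member, 1.01 log2 units, and ran from 2.51 to 27.3 within sham P56 and from 9.67 to 25.5 within sham P1. Rpl34 (0.72) and Rpl13a (0.70) followed. Rpl37, Rpl14 and Rpl35 had the smallest SDs relative to the median member, 0.20, 0.21 and 0.22 log2 units. Rpl35 had a mean value of 0.994, where the log2(value + 1) scale shrinks the spread, so its rank does not show a close match. Rpl14 was at 4.19, 6.05, 4.76 and 5.15 in sham P56 and at 7.48, 7.31 and 9.04 after MI, without overlap (0.57 ± 0.27, adjusted p = 0.283).

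Paralogs of standard ribosomal proteins were at levels of their own. Rpl22 was at 13.8 ± 6.74 (SD) in sham P56, 13.5 ± 2.02 in MI P56, 14.9 ± 0.885 in sham P1 and 15 ± 2.36 in MI P1. Rpl22l1 was at 1.26 ± 0.846, 1.55 ± 0.684, 2.02 ± 0.507 and 2.65 ± 0.604 in the same order, and was lower in every MI P56 library than in every MI P1 library (-0.54 ± 0.35, adjusted p = 0.447). Rps27l, a p53 target gene, was at 4.92 ± 4.93, 2.68 ± 1.21, 3.39 ± 0.902 and 3.24 ± 0.654, and the sham P56 mean rests on 12.3 in library 2, since the others were at 2.49, 2.46 and 2.42. Its parent Rps27, which shares 60.2% of its windows with other genes, had group means of 0.266 to 0.446 and was too low to test. Rpl7 had means of 5.49 to 10.2 and Rpl7l1 of 1.34 to 1.61. None of these paralogs was called in any comparison by limma.

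Members known for other roles, chosen here after their values had been seen, had the following log2 changes after MI at P56. Of the stalk genes, whose proteins recruit translation factors, Rplp0 was at 0.57 ± 0.31 and Rplp2 at 0.65 ± 0.33 (adjusted p = 0.36 and 0.332), and Rplp1 at 0.23 ± 0.38. Rpl5 and Rpl11, whose proteins bind the p53 regulator Mdm2 when ribosome assembly fails, were at 0.15 ± 0.34 and -0.34 ± 0.38. Rps27a, which makes a ribosomal protein fused to ubiquitin, was at 0.08 ± 0.41. Rpl38, known from its part in the translation of Hox mRNAs, was at -0.32 ± 0.30. The groups did not overlap in Rplp2. None of these was called by limma, and their SEs were larger than the members' median of 0.26.

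In the 13 libraries, the translation and ribosome biogenesis lists had medians of the same sign as the members for MI at P56 and age in sham. For TOP mRNA, initiation and elongation factor and ribosome biogenesis genes they were 0.45, 0.15 and 0.37, and -0.79, -0.67 and -0.56. For MI at P1 their medians were 0.21, -0.09 and -0.02. With all 16 libraries the medians were 0.39, 0.17 and 0.29 for MI at P56 (all genes -0.17). For age in sham they were then -0.78, -0.02 and 0.07 (all genes 0.36). No gene of these lists was then called for MI at P56 or for the difference between the ages. For age in sham 2 (12.5%), 0 and 2 (4.55%) were then called, beside 3.91% of all genes. These lists were chosen with earlier results of these data known. Of 16 tested genes with TOP mRNAs other than ribosomal protein genes, 3 rose after MI at P56 in the 13 libraries. These were Npm1, Pabpc1 and Eef1b2 (18.8%, against 2.36% of all genes higher). The list median was 0.45. The assembly factor gene Npm1 (nucleophosmin) went from 29.6 in sham P56 to 90.4 in MI P56 (1.61 ± 0.21, adjusted p = 2.6e-04), and its difference between the ages was called too (1.85 ± 0.32, adjusted p = 0.0159). Pabpc1, for the poly(A) binding protein, went from 59.2 to 150.1 (1.31 ± 0.21, adjusted p = 0.0015). Between the ages in sham 7 of the 16 fell (43.8%, against 7.28% of all genes lower) and none rose, with a median of -0.79. Among the 7 were the elongation factor genes Eef1a1, Eef2 and Eef1b2.

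Of 24 other initiation, elongation and termination factor genes, 1 rose after MI at P56 (Eif1a, 1.74 ± 0.32, limma adjusted p = 0.0036). That is 4.17%, against 2.36% of all genes higher. In sham 7 were lower at P56 than at P1 (29.2%, against 7.28% of all genes). Of 44 ribosome biogenesis genes 0 were called after MI at P56 by limma, where 3.42% of all genes were, with a median of 0.37. At an unadjusted p under 0.05 there were 8, beside 9.62% of all genes higher and 7.53% lower. With age in sham 9 were lower (20.5%, against 7.28% of all genes). Nop58, a core protein of the RNA particles that modify ribosomal RNA, had means of 68.1 in sham P1 and 13.3 in sham P56 (-2.36 ± 0.30, adjusted p = 3.8e-05), and nucleolin (Ncl) of 264 and 81.8. Of 17 mTOR and TOP regulator genes, 1 was called, for age in sham (5.88%, against 13.2% of all genes). Deptor, which binds and restrains mTOR, was higher at P56 in sham (1.55 ± 0.41, limma adjusted p = 0.0153). Of 62 mitochondrial ribosomal protein genes 0 were called in any of the 5 comparisons by limma, where 0% to 13.2% of all genes were. At an unadjusted p under 0.05 there were 0 to 4 of the 62, beside 2.32% to 13.1% of all genes higher and 1.40% to 13.6% lower. The medians of these genes were 0.01 for MI at P56 and 0.15 for age in sham. Of 7 genes of the Myc family and its partners, 1 was called for MI at P56 (14.3%, against 2.36% of all genes higher). The list median was 0.15, with 4 genes above 0 and 3 below. The 1 called was Myc (1.58 ± 0.26, limma adjusted p = 0.002). Its means were 3.50 in sham P56, 12.6 in MI P56, 38.2 in sham P1 and 47.3 in MI P1. The part of Myc in the members' levels was not tested. Of 12 p53 targets, 1 was higher and 2 lower with age in sham (25%, against 13.2% of all genes). For MI against sham 0 were called at either age by limma, where 0% (P1) and 3.42% (P56) of all genes were. At an unadjusted p under 0.05 there were 0 at P1, beside 2.32% of all genes higher and 1.40% lower. At P56 there was 1, beside 9.62% higher and 7.53% lower. For P56 against P1 after MI 2 targets were called lower (16.7%, against 5.35% of all genes called).

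**Figure D5:**
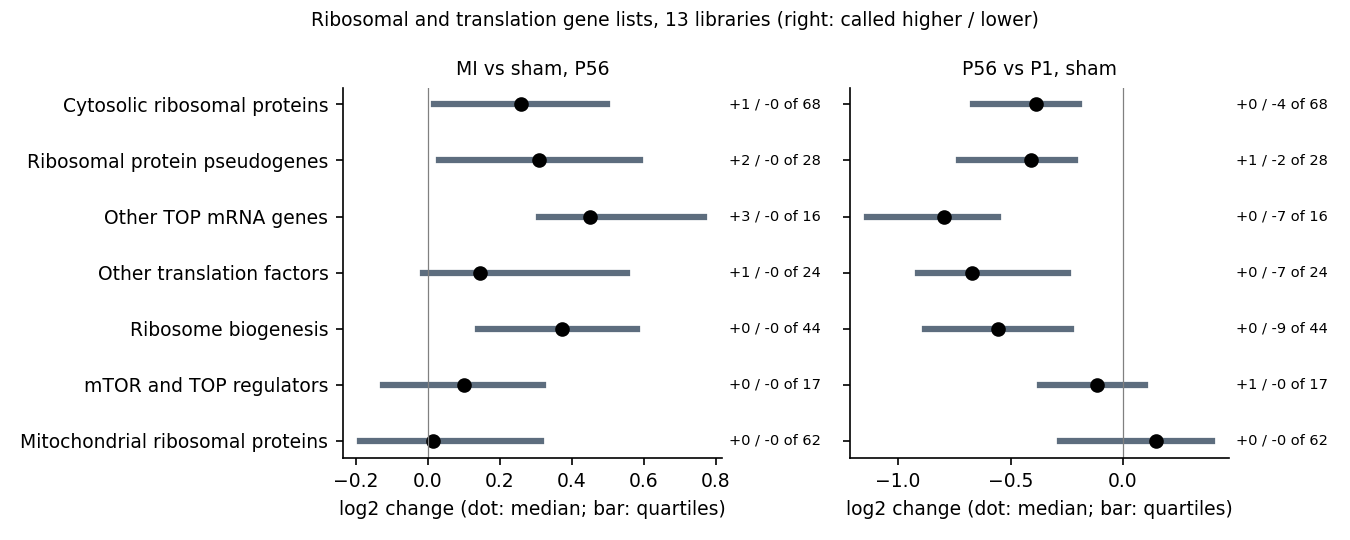
Median (dot) and quartiles (bar) of the fitted log2 changes of the members and of 6 other gene lists for MI against sham at P56 (left) and for P56 against P1 in sham (right), with the numbers called higher and lower. The members lie at 0.26 and -0.39, the other TOP mRNA genes at 0.45 and -0.79, and the mitochondrial ribosomal protein genes near 0 at 0.01 and 0.15.

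Markers of other cells and of division moved with these groups. The summed value of 12 cardiomyocyte markers, all detected, was 1303 to 2348 in sham P56, against 327 to 577 in MI P56, 152 to 233 in sham P1 and 105 to 352 in MI P1, so that the group with the lowest share of member reads had the highest sum. Of these markers 11 were called lower after MI at P56 (91.7%, against 1.07% of all genes). The sum of 12 cell cycle markers was 30.3 to 83.8 in sham P56, 171 to 405 in MI P56, 551 to 637 in sham P1 and 458 to 561 in MI P1, lowest where the members were lowest, with up to 1 of 12 markers at 0. Blood endothelial markers summed to 503 to 801 in sham P56 and to 182 to 344 in the other groups. Mural markers summed to 449 to 1152 in sham P56 and 208 to 335 in MI P56. Fibroblast markers summed to 866 to 4065 in sham P56 and 3745 to 8045 in MI P56. At P1 they summed to 3201 to 6638 in sham and 1860 to 5520 after MI. Their mean was lowest in sham P56 too (2166, against 6044 in MI P56, 4920 in sham P1 and 4000 in MI P1). Leukocyte markers were at 5.39 to 9.26 in sham P56, with up to 3 of 8 at 0 (Cd3e in all 4 libraries), and at 17.1 to 87.6 in MI P56. At P1 they were at 24.5 to 25.5 in sham and 13.9 to 41.2 after MI, so they too were lowest in sham P56. Lymphatic markers summed to 2347 to 3776 in sham P56, 1298 to 2850 in MI P56, 2500 to 3603 in sham P1 and 2188 to 3179 in MI P1. After MI at P56 all 9 had fitted changes below 0, with a median of -0.54, and Cdh5, an endothelial junction gene, fell (-0.73 ± 0.20, adjusted p = 0.0447). For P56 against P1 after MI 8 of 9 were below 0, with a median of -0.40, and Cdh5 was lower too (adjusted p = 0.00948). The part of these cells and of division in the members' levels was not tested.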

How the data were processed

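The deposited values are a signal that the authors scaled from gene counts. The submitters' processing notes list edgeR, HTSeq, STAR and Trimmomatic and the mm10 (GRCm38) build, in versions not given in the sources used here. Dividing a library's values by what 1 read is worth gave whole reads (tolerance 0.01, 100% of values), and these gave depth, shares, edgeR and DESeq2 fits. Columns numbered 5 match no label by number and took their group from the column name. The members and gene lists were chosen with earlier results of these data known.

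Libraries with a read on at least 10000 genes (13 of 16) were fitted with limma 3.58.1 (R 4.3.3) on log2(value + 1), 4 group means, without a block, over the 13033 genes that reached 1 in 4 or more of these libraries. Calls used a two-sided Benjamini-Hochberg adjusted p under 0.05. Changes on this scale understate those of low genes. Members are named in the text if called with groups apart (up to 6 per direction), if among the 3 smallest p in each direction where none was called, if a paralog or its parent, or if among the 3 highest or lowest per kb or most or least variable; Rps3 and members described by role were added after their values had been seen. The method was tested on simulated data. Alternatives were edgeR 4.0.16, DESeq2 1.42.0, all 16 libraries, other filters, pseudocounts and scalings, a replicate block, the compared groups alone and each library left out. Exon lengths, merged over all annotated transcripts of a gene, are from GENCODE M21, where 63 of 75 members have the table's coordinates. Shared windows were found with BLAST+ 2.17.0.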

Additional observations from a re-analysis of the deposited data

Results flagged for a closer look

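Among 60 sets of 4 libraries (28 named members in MI P1 and sham P56, and the share of reads in each group), 4 values stood farther from the rest than Dixon's test allows at its 95% critical value. Chance alone gives about 1 such set in 20. Rps20 in sham P56 was at 38.1 in library 2, with the nearest other library at 12.0. Rps27l in sham P56 was at 12.3 in the same library, with the nearest other at 2.49. Rpl22l1 in MI P1 was at 3.55 in library 1, with the nearest other at 2.47. The share of reads on members in sham P1 was 0.750% in library 2, one of the libraries with few genes, with the nearest other at 0.281%.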

How the results depend on the processing

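No called member changed direction under any alternative run. The members' median difference between the responses turned sign with all 16 libraries, where the all-gene median shifted with it. With all 16 libraries, 0 members were called for MI at P56 and 1 for age in sham, beside 0.174% and 3.91% of all genes. The members' medians were then 0.28 (MI at P1), 0.11 (MI at P56), -0.24 (difference between the responses), -0.23 (age in sham) and -0.39 (age after MI). Medians over all genes were 0.39, -0.17, -0.50, 0.36 and -0.18. A value of at least 5 gave 2 calls for MI at P56 (6.06%, against 5.4% of all genes). The medians were then 0.43 for the difference and -0.65 for age in sham. A pseudocount of 0.25 gave 0.40 and -0.52 for these medians, and one of 4 gave 0.12 and -0.20, and 0.14 for MI at P56. The pseudocount of 4 also gave 1 call for age after MI (1.47%, against 5.28% of all genes). TMM computed again gave medians of 0.37 for MI at P56, 0.43 for the difference and -0.57 for age in sham, and edgeR -0.50 for age in sham. DESeq2 called 3 members for MI at P56, 1 for the difference, 7 for age in sham and 1 for age after MI. It called 6.64%, 2.49%, 16.5% and 7.86% of all genes in these. Fitting only the groups compared called 0, 2 and 1 for MI at P56, age in sham and age after MI, where 1.53%, 7.85% and 9.32% of all genes were called. Leaving out 1 library at a time called 0 to 3 members for MI at P56, 0 to 1 for the difference, 1 to 9 for age in sham and 0 to 1 for age after MI, where 1.11% to 5.01%, 0.00777% to 1.77%, 5% to 17.6% and 2.47% to 10.4% of all genes were called. The share of member reads over all listed genes was 0.106% in sham P56, 0.151% in MI P56, 0.109% in sham P1 and 0.161% in MI P1. Outside mt-Rnr1, mt-Rnr2 and Uqcrc1, the mean of all 4 sham P1 libraries was 0.385%.

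Libraries with the same number correlated in their deviations from the group means with r of -0.153 to 0.135 (12 pairs). Those with different numbers correlated with r of -0.146 to 0.13 (24 pairs), so no sign of pairing by number was seen. With so few libraries per group, and library 3 alone from sham P1, this cannot settle whether the numbers pair the libraries. A replicate block on libraries numbered 1 to 3 gave 0 members called for MI at P56 and 0 for age in sham. In that fit 2% and 2.23% of all genes were called. The same libraries without the block, an alternative chosen after seeing the data, also gave 0 and 0, beside 1.9% and 3.42% of all genes. The causes of these differences were not tested, apart from the smaller number of libraries or genes that some settings leave. Depth limits the 11 members with a mean value under 1, and 2 libraries of sham P1 limit every comparison with that group.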
